A study of Mus musculus with 5 samples.

Results

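Axon guidance ligands and receptors were followed through the conversion of mouse embryonic fibroblasts (MEFs) in 5C medium. The set held 49 listed genes of the Slit, Robo, netrin, DCC, UNC5, neogenin, RGM, semaphorin, plexin, neuropilin, Eph and ephrin families, 25 ligands and 24 receptors, among the 27729 genes measured. All 49 symbols were matched to a gene identifier of the deposited data. MEFs of ICR embryos, prepared after removal of the head and internal organs, were sequenced in MEF medium with serum (day 0) and 2, 5, 10 and 14 days after the change to 5C medium, which the labels name 6C. The last library is labelled day 14 in its title and day field, while the treatment text of the labels names day 15, and it is called day 14 here. This serum-free medium is DMEM/F12 with the N2 supplement, to which vitamin C, 2-mercaptoethanol and the factors bFGF and LIF are added. MEFs are a mixture of embryonic connective tissue cells and may hold other cell types, and all 5 libraries come from the same kind of culture without a transgene. Each time point is a single library of total RNA. Differences between days therefore rest on no replicates and carry no p-value, and the 4 later days share day 0 as their reference.

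Guidance cues are secreted or membrane-bound ligands that steer growing axons and migrating cells by attraction or repulsion. Slits bind Robo receptors. Netrins bind DCC, neogenin and UNC5 receptors, and the repulsive guidance molecules Rgma and Rgmb bind neogenin. Secreted class 3 semaphorins mostly act through neuropilins held together with A-type plexins, whereas membrane-bound semaphorins and Sema3e bind plexins directly. Ephrins and Eph receptors are both membrane-bound and signal between touching cells. Many of these genes are also used outside the nervous system, in the mesenchyme, vessels and migrating neural crest cells of the embryo.

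Levels are given as normalized counts, the deposited expected counts of RSEM divided by the effective size of their library (TMM method) and brought to a common scale. The library totals ranged from 2253748 (day 2) to 3890334 (day 0) expected counts, of which the members held 0.178, 0.159, 0.283, 0.449 and 0.370% in time order. A gene with 3 counts lies at 2.14 to 5.43 normalized counts, highest in the shallowest library, that of day 2. In that library Gm42418, a gene that overlaps the ribosomal RNA repeat, took 4.79% of the counts, against 0.0484 to 0.109% in the other libraries. Of 12 fibroblast markers all 12 passed the filter on low counts, and their summed level lay between 75133 and 120929 normalized counts on all 5 days. Markers of the labelled cell type were thus present from day 0 to day 14. Of 13 neuron markers 8 passed, with 3, 6, 6 and 5 over 2-fold above day 0 and 1, 2, 2 and 2 below it on days 2, 5, 10 and 14, and their sum was 811, 790, 854, 1102 and 2845 normalized counts in time order. Gap43 made up most of the last sum, with 113 normalized counts on day 0 and 2411 on day 14, and Tubb3 went from 22.1 to 161. The 2 markers called below day 0 on day 14 were Stmn2, which went from 448 to 163 normalized counts, and Map2, from 196 to 45.6. Rbfox3 was at 0 in every library, and Dcx, Elavl3, Elavl4 and Syt1 never exceeded 3 counts. All 6 astrocyte markers were over 2-fold above day 0 on days 10 and 14, with sums of 32.7, 300.3, 282, 477 and 467 normalized counts in time order. Of 6 skeletal muscle markers 4 passed and all 4 were over 2-fold below day 0 from day 5 onwards, the sum of the list going from 1239 to 52 normalized counts by day 14. The 12 Schwann cell and neural crest markers summed to 879, 802, 2122, 10738 and 12524 normalized counts from day 0 to day 14. In bulk RNA fewer cells of a type and less RNA per cell cannot be told apart.

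The set as a whole was split evenly on day 2 and leaned upwards afterwards. Changes are log2 ratios to day 0 of the normalized count plus 1, and a change is called when it is past 2-fold. Of the 49 members 47 reached 10 counts in 1 or more libraries and were kept, while Dcc was at 0 in every library and Sema4a had at most 6 counts. On day 2, 11 members were over 2-fold above day 0 and 10 below it, where the shares among all 13346 genes kept were 15.2 and 13.1%. On day 5 the members called were 16 above and 2 below, against 20.2 and 13.6% of all genes kept. On day 10 they were 22 above and 2 below, against 28.7 and 22.3%. On day 14 they were 19 above and 3 below, against 24.5 and 19.9%. Over the 4 later days 25 members were called above day 0 on 1 or more days and 10 below it, with Plxna4 in both groups, against 37.8 and 34.7% of all genes kept. The 34 members called on any day compare with 67.2% of all genes kept, and with 64.5% of the genes of like length described next.

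The median change of the 47 members was 0.08, 0.43, 0.90 and 0.47 on days 2, 5, 10 and 14, where the median of all genes kept was -0.03, 0.05, 0.14 and 0.07. Relative to the shifted median of all genes on day 10 the members' median was 0.76, and 20 members were then called above and 3 below. Guidance genes are long, with a median length of 5244 bases where all genes kept had 2525. Among the 3191 genes kept whose length lay between the quartiles of the members (3490 to 6401 bases) the medians were -0.13, 0.33, 0.76 and 0.46. In that length window 13.0 and 14.5% of genes were called above and below on day 2, 24.6 and 6.99% on day 5, 42.8 and 6.80% on day 10, and 32.1 and 9.97% on day 14. The members' 22 calls above day 0 on day 10 are 46.8% of those kept and their 19 on day 14 are 40.4%, close to genes of like length on day 10 and somewhat over them on day 14. The upward lean of the whole set was shared with other long genes. With the TPM scale, on which the median of all genes itself moved by 1.09 on day 10, the members called were 4 above and 7 below on day 2, 21 and 1 on day 5, 37 and 0 on day 10, and 29 and 2 on day 14. All genes kept were then above and below day 0 in 7.9 and 14.0% of cases on day 2, 32 and 3.98% on day 5, 52.9 and 6.77% on day 10, and 41.6 and 6.97% on day 14. On that scale the calls above day 0 were 36.4% of all member calls on day 2 and 36.0% of those of all genes kept, where they were 52.4 and 53.7% with normalized counts.

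**Figure D1:**
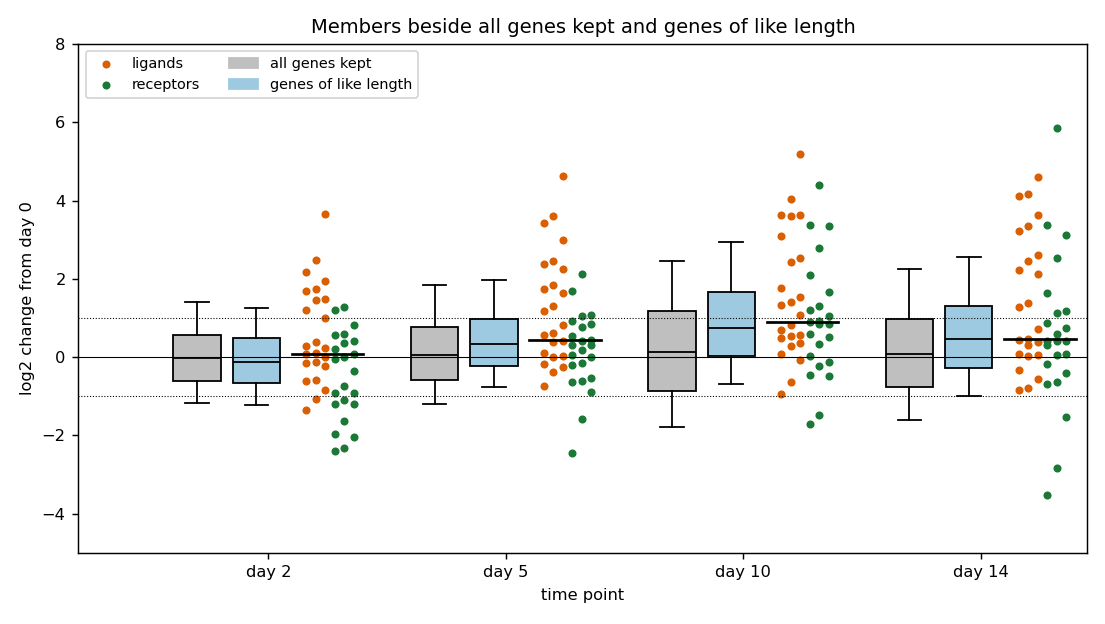
Log2 change from day 0 (y axis) on each later day (x axis) for the 24 ligands and 23 receptors kept, as points with a bar at the median of all 47, beside box plots of all genes kept and of genes with a length between the members' quartiles (box: quartiles, line: median, whiskers: 10th and 90th percentiles). The members' bar lies at 0.90 on day 10, near the line of genes of like length at 0.76 and over that of all genes at 0.14, and dotted lines mark 2-fold.

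Between neighbouring time points the calls were mostly upward from day 2 to day 5 and from day 5 to day 10, and mostly downward from day 10 to day 14. From day 2 to day 5, 18 were over 2-fold higher and 2 lower, against 19.0 and 12.5% of all genes kept. From day 5 to day 10 these numbers were 10 and 3, against 12.8 and 9.50%. From day 10 to day 14, 4 members were over 2-fold higher and 10 lower, against 4.73 and 8.33%, and the members' median step was -0.31. In the length window the shares called above and below were 25.9 and 3.51%, 19.1 and 2.63%, and 2.66 and 11.3% for these 3 steps. Of the 47 members 22 had their highest normalized count on day 10 and 11 on day 14, 46.8 and 23.4% of those kept, where the shares were 26.4 and 17.6% of all genes kept and 48.4 and 16.7% of genes in the length window. On day 0, 6 members were highest (Efnb2, Epha2, Epha4, Neo1, Unc5b and Unc5c), 12.8% of those kept against 23.8% of all genes kept and 15.9% in the length window, and of these Efnb2 is the single ligand.

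More ligands than receptors were called above day 0 on each later day, also on the TPM scale. The ligands Ntn4, Sema4d, Sema7a, Efna1 and Efna2 and the receptor Epha5 had fewer than 10 counts on day 0. They passed the filter through later libraries in which they were higher, so the counts that follow are a description only. Of these genes all but Efna2 were called above day 0 on day 2, and all but Ntn4 on day 14. On day 2, 9 of 24 ligands were over 2-fold above day 0 and 2 below it, whereas 2 of 23 receptors were above and 8 below, that is 37.5 and 8.33% of ligands and 8.70 and 34.8% of receptors, where all genes kept had 15.2 and 13.1% and the length window 13.0 and 14.5%. On day 14, 12 ligands were above and 0 below, against 7 and 3 receptors. These are 50% of ligands above, and 30.4 and 13.0% of receptors above and below, where the shares were 24.5 and 19.9% of all genes kept and 32.1 and 9.97% in the length window, so the receptors were close to genes of like length. The median change of the ligands was 0.26, 1.00, 1.21 and 1.00 on the 4 later days, and that of the receptors was -0.35, 0.30, 0.84 and 0.41. Summed over all members, the ligands' normalized counts on day 14 were 2.87 times those on day 0 and the receptors' were 1.11 times. On the TPM scale 17 ligands and 12 receptors were above day 0 on day 14, and the ligands' median on day 2 was 0.01.

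**Figure D2:**
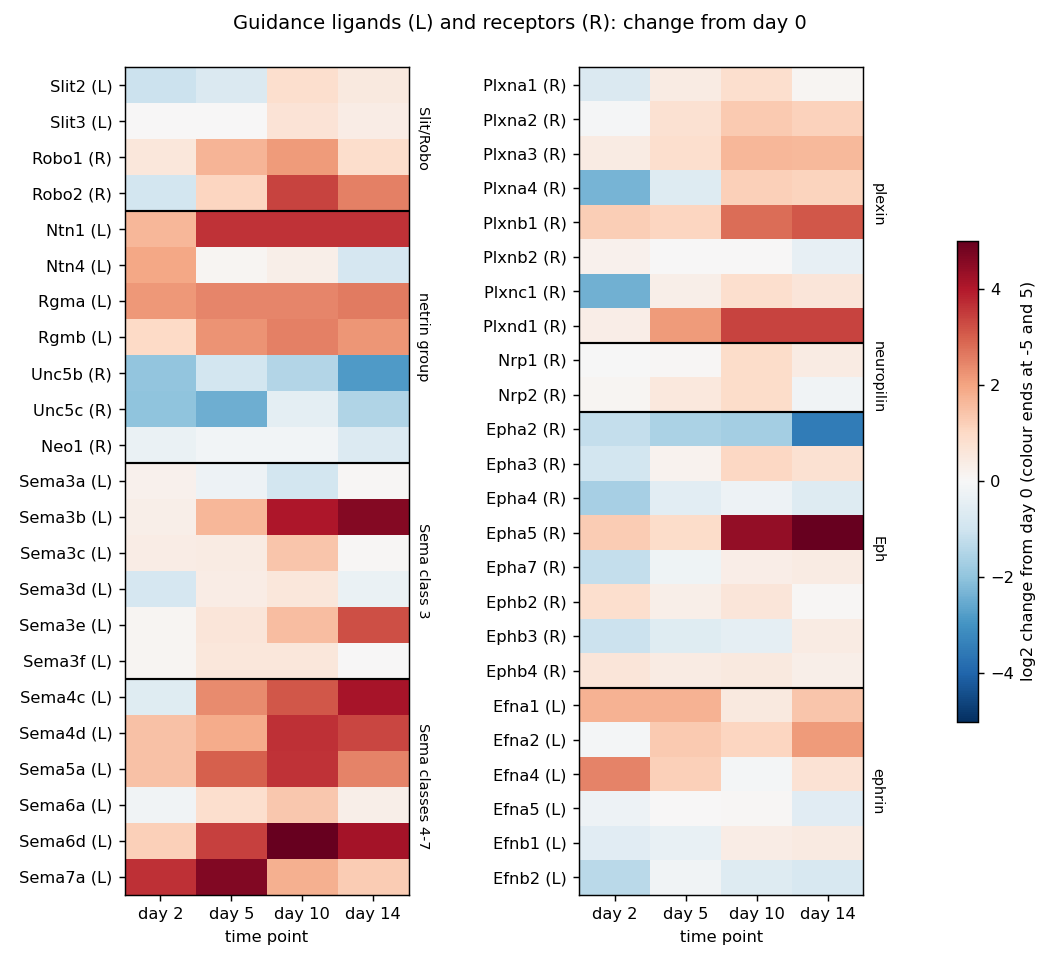
Log2 change from day 0 of each of the 47 members kept (rows, grouped by family, L for ligand and R for receptor) on days 2, 5, 10 and 14 (columns), with red above and blue below day 0. The membrane-bound semaphorins are red on days 5 and 10. Unc5b, Unc5c and Epha2 are blue on every later day (on the TPM scale Unc5c is above day 0 on day 10). On day 2, 4 of 8 Eph receptors are over 2-fold below day 0 (3 with TPM values), against 13.1% of all genes kept.

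Promoters are shown for members that ended far from day 0, namely, among members with 50 or more counts, those highest on day 14 and over 4-fold above day 0 and those over 4-fold below day 0. Promoter sequence was taken from RefSeq (GRCm38.p6) and was matched for 41 of the 49 members. Each line gives the 250 bases before the annotated start, 5′ to 3′ on the gene's own strand, and overlaps no exon of GENCODE M21. Capitals mark matches on either strand to ACAAAG or ACAAT (SOX factors), CACCTG (the E-box bound by Zeb and Snai factors), GGGCGG (Sp and Klf factors) or TGACTCA (AP-1), and no 2 matches overlap. Epha5 (chr5:84417383-84417632, minus strand), Sema3e (chr5:14025026-14025275, plus strand) and Plxnd1 (chr6:115995006-115995255, minus strand) were higher on day 14, and Epha2 (chr4:141300971-141301220, plus strand) and Unc5b (chr10:60831582-60831831, minus strand) were lower.
Epha5: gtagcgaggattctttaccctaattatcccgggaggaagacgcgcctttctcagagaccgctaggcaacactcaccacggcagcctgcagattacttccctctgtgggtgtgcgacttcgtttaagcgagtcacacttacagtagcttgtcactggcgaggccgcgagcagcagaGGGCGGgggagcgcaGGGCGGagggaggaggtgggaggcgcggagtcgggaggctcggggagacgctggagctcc
Sema3e: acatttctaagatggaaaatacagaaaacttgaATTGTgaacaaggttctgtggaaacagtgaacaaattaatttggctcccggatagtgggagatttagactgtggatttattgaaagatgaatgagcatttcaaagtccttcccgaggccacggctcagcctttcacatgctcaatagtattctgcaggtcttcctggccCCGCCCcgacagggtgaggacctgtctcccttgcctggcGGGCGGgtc
Plxnd1: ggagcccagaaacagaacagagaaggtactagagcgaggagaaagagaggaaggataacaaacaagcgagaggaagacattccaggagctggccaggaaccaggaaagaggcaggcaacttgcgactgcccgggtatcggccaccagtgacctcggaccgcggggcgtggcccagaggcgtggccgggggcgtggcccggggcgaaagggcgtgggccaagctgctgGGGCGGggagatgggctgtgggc
Epha2: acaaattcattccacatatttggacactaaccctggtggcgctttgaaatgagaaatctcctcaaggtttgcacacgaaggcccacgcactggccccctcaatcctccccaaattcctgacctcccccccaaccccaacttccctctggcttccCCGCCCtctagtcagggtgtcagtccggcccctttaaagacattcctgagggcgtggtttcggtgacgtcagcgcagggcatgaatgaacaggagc
Unc5b: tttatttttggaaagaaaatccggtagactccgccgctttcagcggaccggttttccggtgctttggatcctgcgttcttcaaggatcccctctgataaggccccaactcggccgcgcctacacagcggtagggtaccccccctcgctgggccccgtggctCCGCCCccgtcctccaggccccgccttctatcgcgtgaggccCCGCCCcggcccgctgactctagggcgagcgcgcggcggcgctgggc
Every one of these 5 windows held GGGCGG, that of Sema3e on both strands and the others on 1 strand, and among them the Sema3e window held a SOX match, 1 ACAAT. The other late riser windows of the same rule, those of Sema4c and Plxnb1, lie within annotated exons and are not shown. Sema3b and Rgma meet the rule too and had no entry in the promoter table. Efna2 was also highest on day 14 and over 4-fold above day 0, but had fewer than 50 counts, and its window, not shown, held ACAAAG and GGGCGG. Over the 41 members with a window, GGGCGG was found in 30 (73.2%) and in 32.7% of all 32851 promoters of the table, which counts each start separately. ACAAAG was found in 4 members, ACAAT in 5, CACCTG in 6 and TGACTCA in 1, that is 9.76, 12.2, 14.6 and 2.44%, against 16.5, 27.7, 17.2 and 4.46% of all promoters. A match of letters is not a binding site, and a window without a match says nothing of the factor.

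Slit2 and Slit3, secreted repellents, had higher TPM than their receptors in every library, while the receptors changed more. Robo2 had 24.7, 12.7, 52.5, 265 and 147 normalized counts in time order, and was 10.7-fold over day 0 on day 10, a log2 change of 3.37 (2.84 to 4.07). Brackets after a log2 change of a gene give the exact 95% Clopper-Pearson interval from the counts in the libraries compared. This interval carries no pseudocount and covers counting error only. After the change of a ratio between members, brackets give the exact conditional 95% interval of the odds ratio of their counts, again for counting error only. Robo1 had 36.6, 54.3, 121, 161 and 67.9 normalized counts, with its peak on day 10 as well at 4.41-fold. Slit2 was over 2-fold below day 0 on day 2 alone, with 296, 141, 178, 526 and 411 normalized counts in time order, and was above its starting level on days 10 and 14. Slit3 stayed within 2-fold, between 323 and 522 normalized counts. The ratio of Robo2 to Robo1 counts, which does not depend on the scaling between libraries, took the values 0.676, 0.233, 0.435, 1.64 and 2.16 in time order. By day 14 it had changed by 1.68 on the log2 scale (0.79 to 2.57), and Robo2 passed Robo1 between days 5 and 10 per length too, with 1.19, 0.780, 4.87, 42.9 and 21.9 TPM against 1.7, 2.09, 9.18, 16.9 and 5.79 TPM.

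In the netrin and RGM group Ntn1, Rgma and Rgmb were higher than on day 0 on every later day. The listed UNC5 receptors, Unc5b and Unc5c, were lower in normalized counts on each of these days. On the TPM scale, however, Unc5c was above day 0 on day 10, at 0.74 (log2). Unc5a, a UNC5 receptor outside the list, had 0, 6, 25, 17 and 11 counts in time order. Ntn1, the founding netrin, had 16.8, 56.1, 215, 219 and 219 normalized counts in time order, a plateau 12.8 times the day 0 level from day 5 onwards. Rgma had 61.4, 279, 343, 338 and 382 normalized counts and was already 4.54-fold over day 0 on day 2. Rgmb followed with 37.6, 76, 182, 221 and 179 normalized counts, and its change was 2.53 (2.07 to 3.08) on day 10. Both RGM ligands bind neogenin, and Neo1 itself stayed within 2-fold, from 309 normalized counts on day 0 to 191 on day 14 (0.18 above day 0 on the log2 scale of TPM). Unc5b, a netrin receptor that mediates repulsion, had 566, 145, 302, 204 and 78.7 normalized counts and was 7.2-fold lower on day 14 than on day 0. Its course was not smooth, since it recovered on day 5 before its second decline, and its change on day 14 was -2.83 (-3.19 to -2.52). Unc5c had 158, 38, 28, 112 and 54.5 normalized counts, lowest on day 5 at -2.46 (-3.10 to -1.94). The Unc5c to Unc5b ratio started at 0.280, dropped to 0.0927 by day 5 and ended at 0.693. Dcc, the attractive netrin receptor, was at 0 in all 5 libraries, which allows up to 5.43 normalized counts in the shallowest. Per length, Unc5b held 50.3% of the summed TPM of this group on day 0 and 5.11% on day 14, where Rgma held 42.2%.

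Among the secreted class 3 semaphorins Sema3b dominated the later libraries. Sema3b (chr9:107597674-107609229, minus strand) had 72.2, 88.6, 228, 1205 and 1787 normalized counts in time order, a 24.7-fold difference by day 14 with a log2 change of 4.61 (4.29 to 4.99). From day 2 onwards the counting intervals of neighbouring days did not overlap, and day 2 was within the counting error of day 0. On the TPM scale, which allows levels of different genes to be compared, Sema3b had 7.97, 8.14, 43.7, 311 and 377 TPM and was the highest of all 49 members on days 10 and 14. Its share of the class 3 TPM sum went from 15.8% to 77.9%. The Schwann cell and neural crest markers named above had their 2 highest sums on the same 2 days, all 12 of them over 2-fold above day 0 on day 10 and 11 on day 14, and their part in the level of Sema3b was not tested. Sema3e, which binds Plxnd1 without a neuropilin, had 30.7, 32.6, 47.3, 91.6 and 294 normalized counts and reached 3.22 (2.73 to 3.84) on day 14, 9.59-fold over day 0. Sema3c, by contrast, peaked on day 10, with 117, 152, 156, 309.9 and 122 normalized counts, and was back at the day 0 level on day 14 in normalized counts, though at 9.53, 11.1, 21.3, 49.3 and 20.4 TPM in time order it was higher than on day 0. Sema3a, a collapse factor for growth cones, was lowest on day 10 at 62.6 normalized counts, when Sema3c was highest, but on the TPM scale, with 7.86, 8.54, 10.5, 9.56 and 16.4 TPM in time order, it was above day 0 on that day. The Sema3c to Sema3a ratio changed by 2.35 (1.84 to 2.86) on day 10 and by 0.03 (-0.49 to 0.55) on day 14, both on the log2 scale. Sema3f stayed within 2-fold in normalized counts and went from 44.1% of the class 3 TPM sum on day 0 to 8.51% on day 14.

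The listed semaphorins of classes 4 to 7 started low and had the largest increase of any family as a sum. Their normalized counts summed to 112 on day 0 and to 225, 697, 1135 and 981 on days 2, 5, 10 and 14, 10.1 times the start on day 10. All 6 members kept were over 2-fold above day 0 on day 10 and 0 were below. The shares above and below were then 28.7 and 22.3% of all genes kept and 42.8 and 6.80% in the length window. Sema4d and Sema7a, with 2 and 5 counts on day 0, passed the filter through later libraries in which they were higher. The count of 6 is thus a description only. Sema6d, a ligand of Plxna1, had 11.4, 27.3, 132, 449 and 222 normalized counts in time order and changed by 5.19 (4.52 to 6.38) on day 10. The deposited length of Sema6d was 3084 bases on day 0 and 6123 to 6225 bases on the later days, and its day 2 change of 1.19 (0.10 to 2.58) was -0.01 on the TPM scale. Sema4c (chr1:36548639-36558349, minus strand), a ligand of Plxnb2, had 30.7, 19.9, 164, 268 and 549.7 normalized counts, with a change of 4.12 (3.64 to 4.73) on day 14. It had not increased by day 2, and among the listed members of these classes it alone was highest on day 14, when it held 67.5% of their TPM. Outside the list, Sema4f and Sema4g were also highest on day 14, Sema4f with 27.7, 16.3, 82.3, 404 and 1472 normalized counts. Sema4b, Sema6b and Sema6c were highest on days 5, 10 and 2, and Sema5b had 39.7 normalized counts on day 0 and 0 on days 2 and 5. Sema5a had 19.8, 56.1, 164, 251 and 114 normalized counts and Sema6a had 42.6, 38, 76.1, 109 and 52.7, both highest on day 10. Sema6a and Sema6d parted clearly, as the Sema6d to Sema6a ratio went from 0.267 to 4.2 by day 14, or by 3.98 on the log2 scale (2.94 to 5.22). Sema7a, a membrane-anchored semaphorin that binds Plxnc1 and integrins, took a course of its own. It had 4.95, 74.2, 146, 19.3 and 13.4 normalized counts, highest on day 5 at 29.5-fold over day 0, from 5 counts on day 0 and 167 on day 5. Sema7a alone among the 47 members was highest on day 5, and it was 45.9% of the family's TPM on day 2 but 1.90% on day 14. Sema4d, a ligand of Plxnb1, had 1.98, 7.29, 9.65, 36.1 and 29.4 normalized counts, and its interval on day 10 was wide, 3.64 (2.27 to 7.29), since it had 2 counts on day 0. The 12 macrophage markers summed to 285, 2048, 3849, 2361 and 1702 normalized counts in time order, highest on the same day as Sema7a. Lyz2 alone made up 2738 of the day 5 sum, and besides it only Cd68 and Tyrobp were highest on day 5. Ptprc, Adgre1, Cd14, Mrc1 and Cd5l were highest on day 10, and Csf1r, Itgam, Cx3cr1 and Fcer1g on day 2. Of the 12 macrophage markers, Cx3cr1 never exceeded 3 counts and 10 were over 2-fold above day 0 on day 5. Their part in the courses of Sema7a and Sema4d was not tested.

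**Figure D3:**
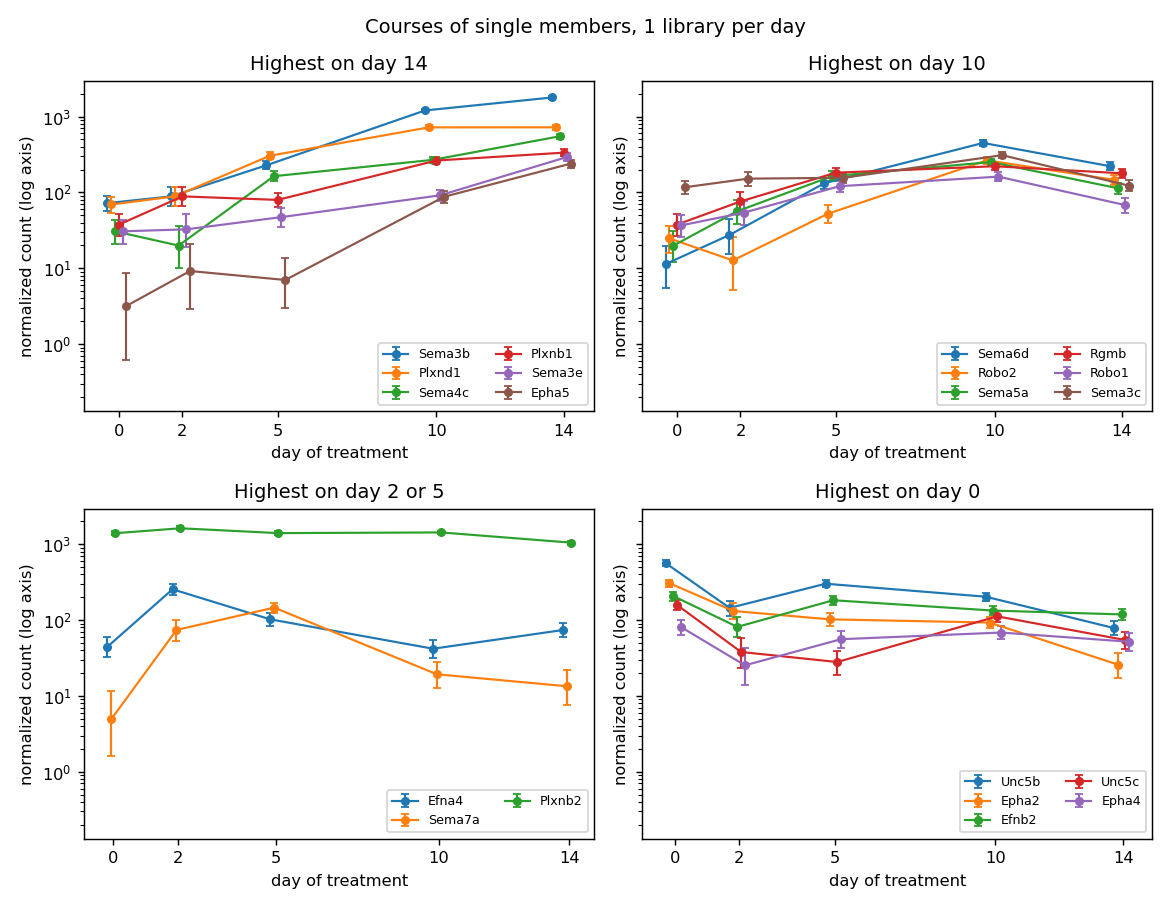
Normalized counts (y axis, log scale) by day (x axis) for 20 members grouped by the day of their highest level, with points for the single library of each day and bars for the exact 95% Poisson interval of its count. Sema3b climbs from 72.2 to 1787, Sema7a peaks at 146 on day 5, and Epha2 declines from 307 to 25.9.

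Plexins are the receptors of semaphorins, and the family was led by a gene that hardly moved. Plxnb2 had 1400, 1626, 1404, 1434 and 1051 normalized counts in time order, within 2-fold throughout. Per length it was the highest of all members on days 0, 2 and 5. Its TPM, 446, 574, 397, 267 and 270.4 in time order, fell more than its counts, and its deposited length, an average over isoforms, ranged from 857 to 4256 bases in the 5 libraries. The 7 other listed plexins together rose past 2-fold, from a sum of 795 normalized counts to 2372 on day 10 and 2059 on day 14. Plxnd1, the receptor of Sema3e, had 69.3, 88.6, 305, 721 and 722 normalized counts and changed by 3.36 (3.03 to 3.76) on day 14. It was thus higher together with its ligand, although Plxnd1 was level from day 10 to day 14 while Sema3e was still increasing. Plxnd1 is best known from endothelial cells, whose 8 markers summed to 660 normalized counts on day 0 and 87.1 to 266 on the later days, with Pecam1 and Tie1 at 3 counts or fewer, and their part in the level of Plxnd1 was not tested. Plxnb1, the receptor of Sema4d, had 37.6, 88.6, 79.6, 264 and 334 normalized counts and changed by 3.12 (2.67 to 3.67). The Plxnb2 to Plxnb1 ratio fell from 37.2 to 3.14 by day 14, with a change of -3.57 (-4.10 to -3.07). The A-type plexins, partners of neuropilins, changed less. Plxna3 had 44.5, 59.7, 81.4, 144 and 139 normalized counts and Plxna2 had 98, 94.5, 167, 243 and 222, each highest on day 10 with changes of 1.67 (1.22 to 2.20) and 1.30 (0.98 to 1.65). Plxna4 was over 2-fold below day 0 on day 2 and over 2-fold above it on days 10 and 14, with 49.3, 9.05, 31.5, 114 and 108 normalized counts. Its day 2 level rests on 5 counts. Plxna1 stayed within 2-fold and was highest on day 10 at 860.4 normalized counts.

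The neuropilins, which bind class 3 semaphorins, stayed within 2-fold of day 0 in normalized counts on every day, while their summed TPM was 4.26 times day 0 on day 10. Nrp1 had 346, 346, 359.6, 659 and 461 normalized counts and Nrp2 had 219, 233, 317, 409.7 and 193. Both were highest on day 10, with changes of 0.93 (0.75 to 1.11) and 0.90 (0.68 to 1.14) that exclude 0 but miss 2-fold. The Nrp2 to Nrp1 ratio started at 0.632, reached 0.883 by day 5 and ended at 0.419, so the balance was tilted to Nrp1 at the end by -0.59 (-0.94 to -0.25) on the log2 scale.

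Within the Eph receptors Epha2 receded and Epha5 came up. Epha2 (chr4:141301240-141329384, plus strand), an Eph receptor common in epithelial cells, had 307, 132, 102, 92.8 and 25.9 normalized counts in time order and was 11.8-fold lower on day 14, a change of -3.52 (-4.17 to -3.01). It was lower than on day 0 in every later library, and its level fell again from day 10 to day 14. Epha5 (chr5:84054761-84417382, minus strand), known from the nervous system, had 3.19, 9.19, 7.0, 87.6 and 240.4 normalized counts in the same libraries, from 3 to 269 counts. Its change on day 14, 5.85 (4.78 to 8.63), was the largest of all members on any day, with an interval that reflects the few counts on day 0. Per length, Epha2 went from 31.2 to 2.68% of the family's TPM and Epha5 from 0.260 to 20.2%. The normalized counts of the whole family summed to 1.09 times day 0 on day 14, and its TPM to 1.81 times. On day 2, 4 of the 8 members, Epha2, Epha4, Epha7 and Ephb3, were over 2-fold below day 0. The shares below were 13.1% of all genes kept and 14.5% in the length window. With TPM values, and also with quantile normalization, 3 of the 8 were below. Epha4 had 81.2, 25.3, 56, 68.6 and 51.8 normalized counts, Epha7 had 42.6, 18.1, 36.8, 53.6 and 57.2 and Ephb3 had 197, 92.3, 129, 144 and 262. Each of these 3 returned to within 2-fold by day 5, and Ephb3 was highest on day 14. Epha3 had 41.6, 21.7, 47.3, 86.4 and 70.6 normalized counts and passed 2-fold on day 10 alone. The Epha3 to Epha2 ratio, free of library scaling, changed by 4.33 (3.51 to 5.15) from day 0 to day 14. Ephb2 and Ephb4 moved the other way on day 2, to 215 and 289 normalized counts, their highest levels, and stayed within 2-fold. The Ephb3 to Ephb2 ratio thereby started at 1.63, dipped to 0.430 in the day 2 library and ended at 2.10.

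Ephrins, the ligands of Eph receptors, summed to 583 to 605 normalized counts on all 5 days while single members moved, whereas their summed TPM was 2.23 times day 0 on day 14. Efna4 had 44.5, 255, 102, 41.9 and 74.2 normalized counts in time order and was 5.73-fold over day 0 on day 2, 2.49 (2.02 to 3.04) on the log2 scale. It held 59.8% of the family's TPM on day 2 and 15.9% on day 0. Efnb2, a ligand of Ephb4 and of other B-type receptors, had 208, 81.4, 183, 134 and 119 normalized counts and was lowest on day 2 at -1.34 (-1.85 to -0.88), though on the TPM scale it was above day 0 from day 5 onwards. Efnb1 stayed within 2-fold and was highest on day 14 at 279 normalized counts. The Efnb2 to Efnb1 ratio went from 1.01 to 0.426 by day 14, with a change of -1.24 (-1.66 to -0.83). The day 2 peaks of Efna4 and of the epithelial marker Krt18, with 30.7 normalized counts on day 0 and 293 on day 2, came from the same library. The 6 epithelial markers summed to 40.6, 315, 81.4, 17.9 and 16.1 normalized counts in time order, with Ocln at 0 and Cdh1 and Cldn4 at 3 counts or fewer in every library, and their part in the level of Efna4 was not tested.

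**Figure D4:**
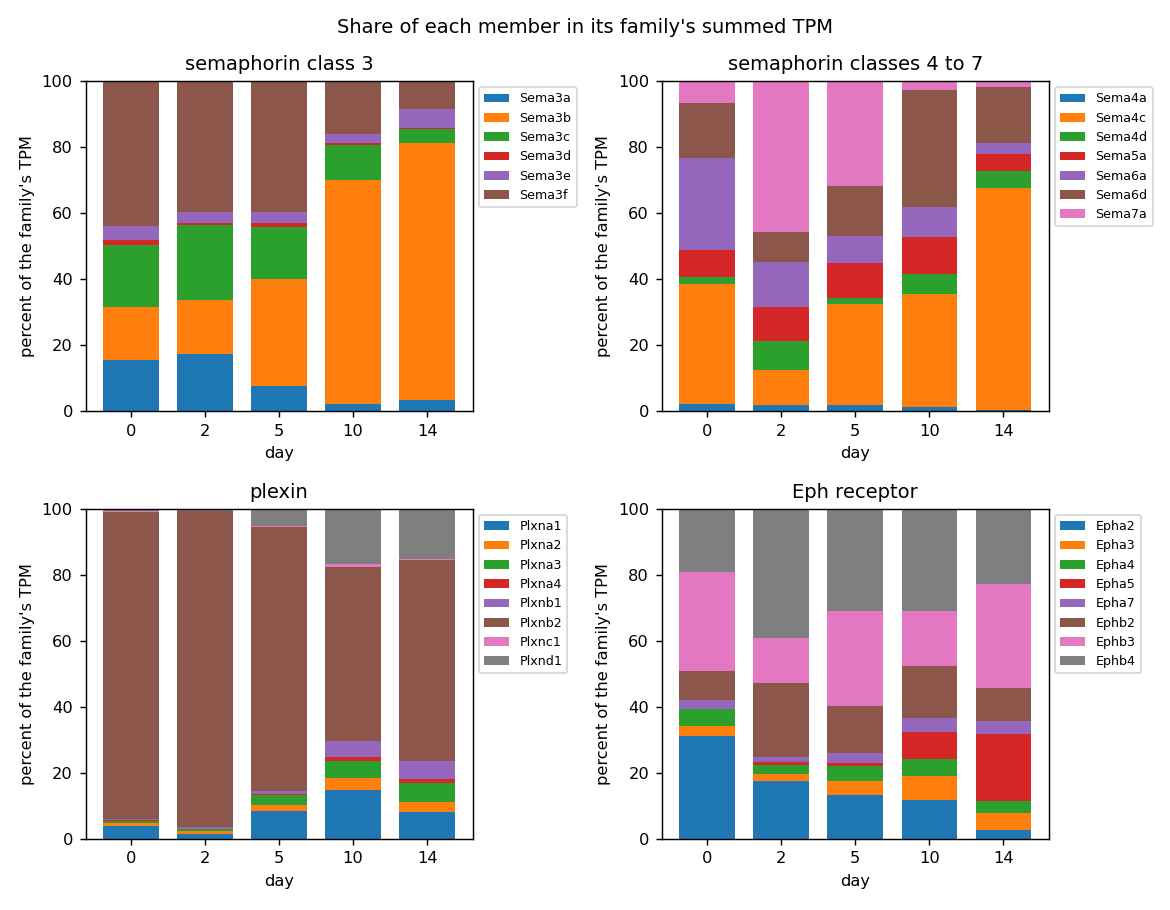
Percent of the summed TPM of each family (y axis) held by its members (colours) in the library of each day (x axis) for class 3 semaphorins, semaphorins of classes 4 to 7, plexins and Eph receptors. Sema3b grows from 15.8 to 77.9% of class 3, Epha2 shrinks from 31.2 to 2.68% of the Eph receptors, and Plxnb2 from 93 to 60.8% of the plexins.

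Seen as ligand and receptor pairs, both partners were over 4-fold above day 0 on day 14 in some systems and not in others. Sema3e and Plxnd1 were such a pair, and so were Sema4d and Plxnb1, although Sema4d had 33 counts on day 14 and 2 on day 0. Of all genes kept 11.7% were over 4-fold above day 0 on day 14. Sema4d passed the filter through later libraries in which it was higher, so its pair is a description only. Sema4c was 17.9-fold higher on day 14, and its receptor Plxnb2 was at 0.751 times its start. Ntn1 was 13-fold higher while Unc5b and Unc5c were lower and Dcc was at 0. The unlisted Unc5a went from 0 counts on day 0 to 11 on day 14. Sema7a peaked with 146 normalized counts on day 5, when Plxnc1 had 17.5. Slits stayed within 2-fold in normalized counts from day 5 onwards while Robo2 was over 2-fold higher.

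**Figure D5:**
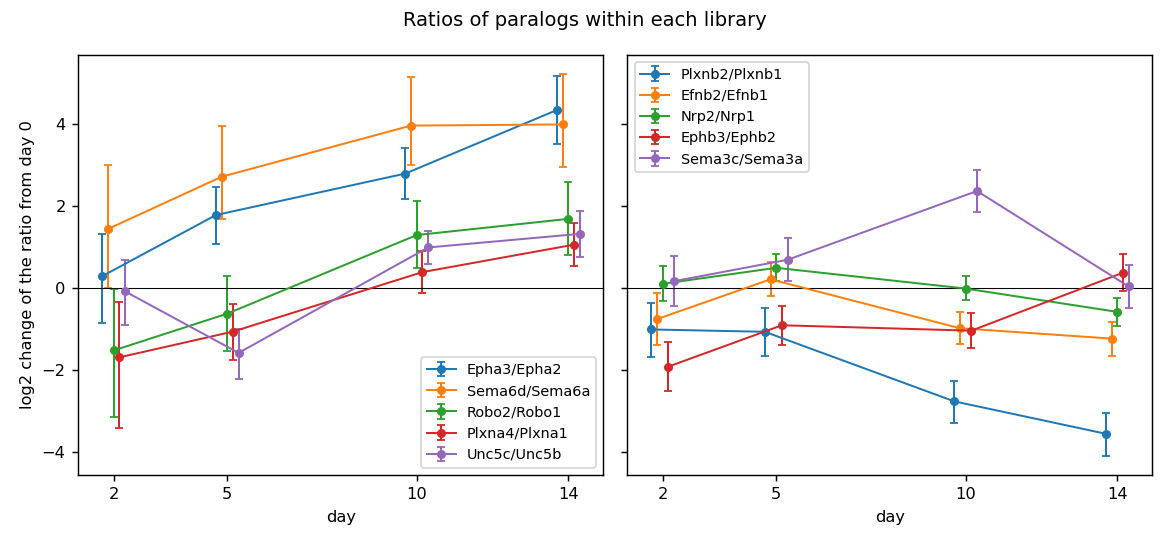
Log2 change from day 0 (y axis) of the count ratio of 2 paralogs within each library on days 2, 5, 10 and 14 (x axis), with exact 95% intervals from the counts. The Epha3 to Epha2 ratio reaches 4.33 and the Plxnb2 to Plxnb1 ratio -3.57 on day 14, both free of the scaling between libraries.

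A further 12 members with 50 or more counts never passed 2-fold in normalized counts. They were Slit3, Neo1, Sema3a, Sema3f, Plxna1, Plxnb2, Nrp1, Nrp2, Ephb2, Ephb4, Efna5 and Efnb1, with changes between -0.94 and 0.93 in any library. On the TPM scale several of them passed 2-fold on day 10, while Plxnb2 did not. From day 0 to day 10 Slit3 went from 23.17 to 78.96 TPM, Sema3f from 22.17 to 73.94, Plxna1 from 18.73 to 75.35 and Efnb1 from 22.24 to 71.93. Of the 12 members only Efna5 has not been described, and it lay between 73.3 and 115 normalized counts. Another 7 members had fewer than 50 counts in every library. Their highest counts were 10 for Ntn4, 29 for Sema3d, 6 for Sema4a, 36 for Plxnc1, 33 for Efna1, 42 for Efna2 and 0 for Dcc. Exons of 11 members overlap those of another gene in GENCODE M21, in most cases on the opposite strand, and the library kit keeps no strand, so reads there cannot be told apart. They include Sema4c (D430040D24Rik), Plxnb1 (Gm7628), Rgma (A730056A06Rik), Unc5c (Gm15688), Efna4 (4731419I09Rik), Plxna1 (Gm26811) and Plxna4 (Plxna4os3). In no member did the distances of its expected counts from whole numbers add up to more than 0.607% of its summed counts. This does not measure how many reads RSEM shared between genes.

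The remaining genes of the same families, 28 of 29 listed found and 17 kept, held more calls above than below day 0 on each later day. Of these 17, 10 had fewer than 10 counts on day 0, so they passed the filter through the later libraries in which they were high, and the counts that follow are a description only. On day 14, 12 were over 2-fold above day 0 and 2 below, and 11 and 2 on day 10, 10 and 1 on day 5, and 7 and 3 on day 2, where the shares of all genes kept above and below were 24.5 and 19.9, 28.7 and 22.3, 20.2 and 13.6, and 15.2 and 13.1%. Their median on day 14 was 2.79, or 2.36 with genes at 0 counts on day 0 set to their bound. Plxnb3, a B-type plexin, had 0, 4, 63, 718 and 1155 counts in time order and was at least 348-fold higher on day 14, taking 3 counts in the day 0 library as the floor. Draxin, a secreted ligand of DCC, had 0 counts on day 0 and was at least 45.2-fold higher on day 10. Sema3g went from 1 count to 281 on day 10, a change of 6.66 (5.17 to 12.97).

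Proteins that act beside these receptors at the membrane and inside the cell changed in both directions. Of 60 intracellular effectors, all kept, 6, 11, 16 and 16 were over 2-fold above day 0 on days 2, 5, 10 and 14, and 8, 9, 8 and 12 were below. The shares above were 10.0, 18.3, 26.7 and 26.7%, against 15.2, 20.2, 28.7 and 24.5% of all genes kept, and those below were 13.3, 15.0, 13.3 and 20%, against 13.1, 13.6, 22.3 and 19.9%. The effectors thus lay near the background. The largest changes among those with 100 or more counts belonged to Arhgef11, an exchange factor bound by B-type plexins, with 8.47, 3.04, 104, 321 and 251 normalized counts, to Dpysl5, a collapsin response protein, with 1.98, 1.81, 15.8, 91.4 and 69.7, and to Plekha5 with 17.2, 8.56, 91.4, 217 and 184. Of 32 coreceptors and modifiers 30 were kept, of which 4, 9, 14 and 10 were above and 7, 1, 3 and 4 below. These are 13.3, 30, 46.7 and 33.3% above and 23.3, 3.33, 10.0 and 13.3% below, beside the same shares of all genes kept. L1cam, an adhesion molecule that associates with Nrp1, had 15.8, 39.1, 269, 1527 and 1377 normalized counts, and its change of 6.36 on day 14 was over that of any member. Nrcam, of the same adhesion family, had 24.0, 40.0, 79.6, 307 and 607. Kdr, the VEGF receptor that joins neuropilins in endothelial cells, had 236, 3.62, 5.25, 6.43 and 3.58, already at 2 counts in the day 2 library. Kdr is itself 1 of the 8 endothelial markers, and the other 7 summed to 425, 253, 118, 80.7 and 263 normalized counts in time order. The neuron, astrocyte, skeletal muscle and Schwann cell lists given above moved over the same days, and the part of these cell types in the genes of these lists was not tested.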

How the data were processed

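Each library of ICR MEF total RNA was placed by the day in its label, 1 for every time point. The authors deposited for each gene an expected count, which is RSEM's unscaled estimate of its reads, with TPM (scaled for length, to a fixed sum) and FPKM (scaled for length and depth) values. The deposited FPKM values were not used. The submitters' processing notes name Bowtie, RSEM and mm10 without versions, and the annotation release is not given in the sources used here. Symbols, coordinates and exon overlaps came from GENCODE M21 (GRCm38).

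The members and the other lists were chosen with earlier results of these data known. Expected counts were rounded for library sizes (TMM, edgeR 4.0.16, R 4.3.3), which ranged from 2253748 to 3890334 counts before scaling (TMM factors in time order 0.856, 0.808, 1.11, 1.19 and 1.10). A gene was kept if 1 or more libraries gave it at least 10 expected counts. Changes carry a pseudocount of 1, and folds none. Intervals of changes (Clopper-Pearson, without the pseudocount), of changes of ratios (conditional odds ratio) and of levels (Poisson) are 95%. Without molecular identifiers, they cover counting error only. Members with 50 or more counts and over 2-fold on a later day are given in every library, the others by range or highest count, and 3 genes were named per other list by largest change among those with 100 or more counts. The steps were tested on simulated counts. The alternatives were DESeq2 size factors (1.42.0), library totals, TPM, quantile normalization, a pseudocount of 5, a minimum of 30 counts or none, a 4-fold threshold, genes of like length and, added after the data were seen, changes relative to the median of all genes. Python 3.11.15, numpy 2.4.6, scipy 1.17.1 and pandas 2.3.3 were used.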

Additional observations from a re-analysis of the deposited data

How the results depend on the processing

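No paired analysis was possible because each time point has 1 library, and for the same reason no library could be left out. With DESeq2 size factors, library totals, quantile normalization, a pseudocount of 5, a minimum of 30 counts, no minimum and changes relative to the median of all genes (chosen after seeing the data), every number of members called stayed within 1.5 times the reported one. Every median then stayed between the median lower and the median upper counting bound of the single members, -0.57 and 0.62 on day 2. These bounds describe a typical single member and do not measure the error of a median. With TPM values the members called above day 0 were 4 on day 2, 37 on day 10 and 29 on day 14 in place of 11, 22 and 19. Those below were 1 on day 5 and 0 on day 10 in place of 2 and 2, and the median on day 10 was 1.82 in place of 0.90. TPM values alone also turned a single called change, that of Sema6d on day 2, to -0.0126. The median of all genes moved by -0.20, 0.61, 1.09 and 0.78 on the TPM scale, and by 0.41, 0.60 and 0.42 on days 5, 10 and 14 with library totals. With a 4-fold threshold 3, 8 and 13 members were above day 0 on days 2, 5 and 10, since fewer changes reach that size. Those below it were 3, 1 and 0. On day 14, 14 members were above and 2 below. Of all genes kept 5.36, 8.70, 13.9 and 11.7% were over 4-fold above day 0 on days 2, 5, 10 and 14. The shares below were 2.92, 2.78, 7.92 and 6.11%. Of 1128 recomputed changes of single members 960 stayed within their counting interval. With TPM values 89 stayed, 98 moved out of it and 1 was reversed. With library totals 134 stayed and 54 moved out. With 1 library per time point, differences between cultures or library preparations cannot be separated from the time in 5C medium, and changes of members with few counts on day 0, such as Epha5, Sema4d and Sema7a, have wide intervals.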
